A study of Mus musculus with 3 samples.

Results

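The mevalonate pathway turns acetyl-CoA into the branched isoprenoid units from which cells make cholesterol, ubiquinone, dolichol and the lipid anchors of small GTPases, and squalene is its last product before the sterol rings are formed. Most of its genes are known targets of SREBP-2, a membrane-bound transcription factor that is cut and released to the nucleus when the endoplasmic reticulum is low in sterol. In tumour cells the pathway is known as a supplier of membrane sterol and of prenyl groups for signalling proteins. Its genes were followed here in 4T1, a mouse mammary carcinoma cell line, in pathway order: Acat2, Hmgcs1, Mvk, Pmvk, Mvd, Idi1, Fdps, Ggps1 and Fdft1. The members are every probe set, a group of short probes for 1 transcript on the array, whose annotation names 1 of these 9 genes and no other. This gave 22 of the 45037 probe sets, for 8 of 18193 named genes. Acat2, the cytosolic thiolase that makes acetoacetyl-CoA, had no such probe set and therefore has no value.

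The study set 4T1 cells that had been in contact with MSCs, or with their medium, beside 4T1 cells in regular medium. MSC commonly stands for mesenchymal stem, or stromal, cell. The co-culture group was 4T1 cells kept in contact with MSCs for 1 week and then isolated from the mixture, the conditioned-medium group was 4T1 cells kept for 1 week with medium from MSC cultures (MSC-CM), and the regular-medium group was 4T1 cells in regular medium for an unstated time. All groups shared RPMI-1640 with 10% FBS as the base medium, and the labels give no genetic change in any of them. Each group was 1 Affymetrix Mouse Genome 430 2.0 array of labelled total RNA, so a difference between groups is a difference between 2 arrays, with no replicate error, test or p-value. The labels name neither the origin of the MSCs nor the means of isolation.

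Median signals were 72.5 in co-culture, 71.6 in conditioned medium and 79.8 in regular medium, and the values were used on the scale deposited, which is linear. Signals under 42.4, the level below which 40% of all values lie, were raised to that floor before ratios were taken. A gene was called lower or higher when its signals lay 2-fold or more apart and the higher of them reached 149.3, the level below which 60% of values lie; such a gene is called bright. A gene was represented by its brightest probe set on average, and for the pathway genes the others are given beside it. For genes outside the pathway only that probe set is given. Several of these names mark that the probes may match more than 1 transcript. Among them are the probe sets for Krt14, Lss, Hsd17b7, Msmo1, Srebf1, Dhdds, Rabggtb, Epcam, Krt7, Krt8, Col1a2, Col6a2, Pdgfrb and Csf1r. The level of one probe set cannot be set against that of another, so levels are compared only between arrays. All 7 epithelial markers, Epcam, Cdh1, Cldn4, Krt7, Krt8, Krt14 and Krt18, were bright on all 3 arrays. The basal keratin Krt14 was called lower in co-culture than in regular medium, with a log2 difference of -1.47, and Cldn4, Cdh1 and Krt7 had 0.81, 0.68 and 0.61.

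In co-culture all 8 measured pathway genes had lower signals than in regular medium, and 6 of them, Hmgcs1, Mvk, Mvd, Idi1, Fdps and Fdft1, were at least 3-fold lower. The other 2, Pmvk and Ggps1, were 1.69-fold and 1.42-fold lower and did not reach the 2-fold rule. Over all 9393 genes bright on at least 1 of these 2 arrays, 2.76% were called lower, 5.81% were called higher and 44.0% had a log2 difference below 0. The median log2 difference of the 8 genes was -1.94, a median fold of 3.83, where the median over all bright genes was 0.07. On the conditioned-medium array the same 8 genes lay close to regular medium, and none was called in either direction. Because these are bulk samples, fewer cells that make a transcript and less of that transcript per cell cannot be told apart.

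**Figure D1:**
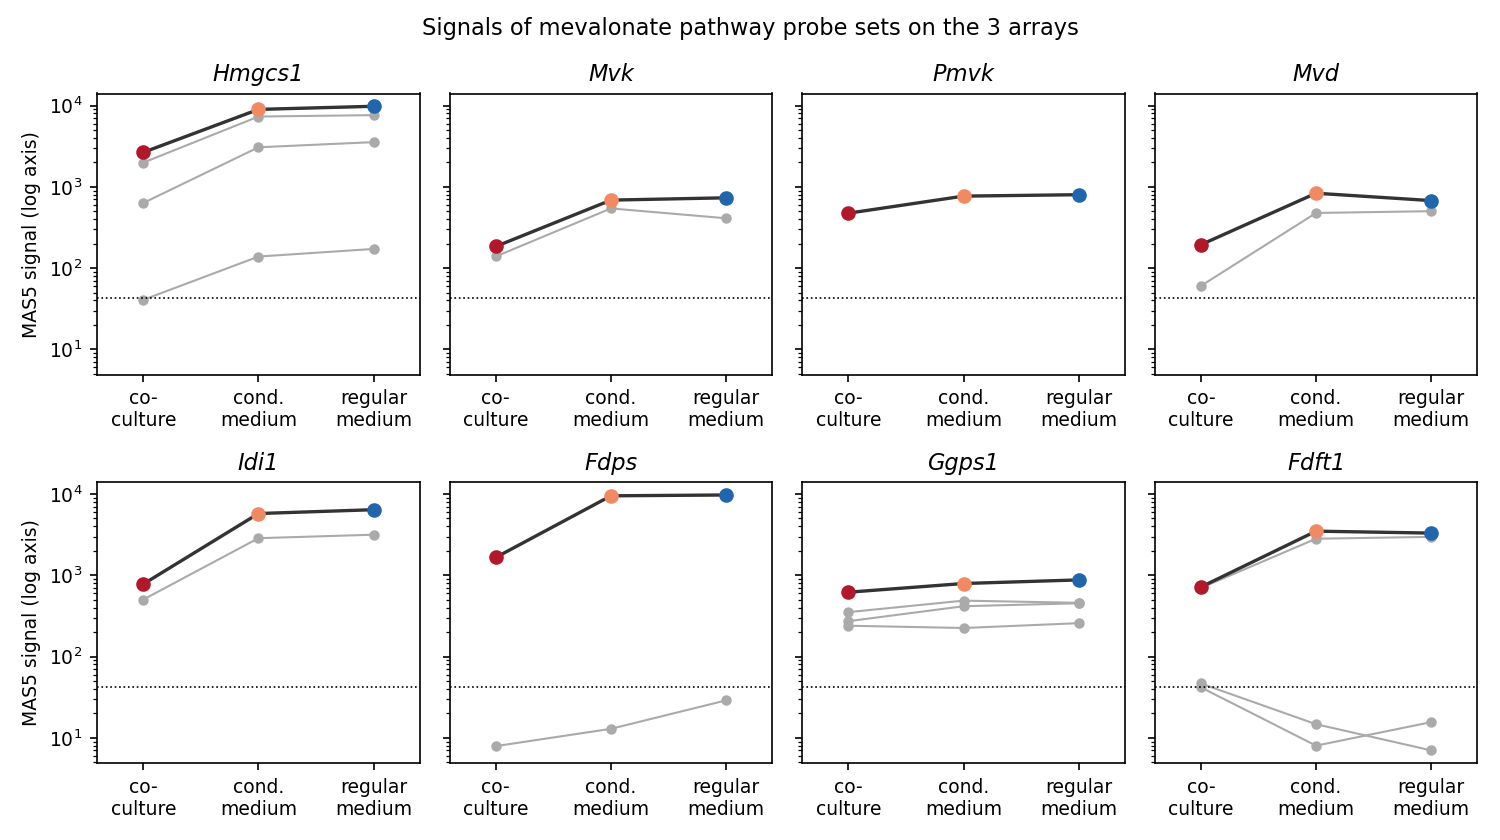
MAS5 signal on a log axis of each probe set of the 8 measured genes in co-culture, conditioned medium and regular medium, 1 array each; the coloured points on a dark line are the probe set that stands for the gene, grey lines are its other probe sets, and the dotted line is the floor of 42.4. The bright probe sets of Hmgcs1, Mvk, Mvd, Idi1, Fdps and Fdft1 step down on the co-culture array, while Pmvk and Ggps1 stay nearer to level.

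Hmgcs1 encodes the cytosolic HMG-CoA synthase, which joins acetyl-CoA to acetoacetyl-CoA at the entry to the pathway. Its leading probe set (1433444_at) had a signal of 2652 in co-culture, against 8963 in conditioned medium and 9789.9 in regular medium. This is 3.69-fold lower in co-culture than in regular medium, and the conditioned-medium array lay 1.09-fold below regular medium. Of the other 4 probe sets, 3 were bright throughout regular and conditioned medium and were 3.64-fold to 5.61-fold lower in co-culture. The fifth (1441536_at) read 40.6 in co-culture, 138.5 in conditioned medium and 171.9 in regular medium, so it was at least 4.05-fold lower in co-culture than in regular medium. All 5 Hmgcs1 probe sets therefore stood lowest on the co-culture array.

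Mvk, mevalonate kinase, adds the first phosphate to mevalonate. Its leading probe set read 184 in co-culture, against 685 in conditioned medium and 732 in regular medium, which is 3.97-fold lower in co-culture than in regular medium. A second probe set (1430619_a_at) read 139 in co-culture, 542 in conditioned medium and 409.7 in regular medium. Both were lowest in co-culture, but conditioned medium stood below regular medium on the first, with a log2 difference of -0.09, and above it on the other, with 0.40.

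Pmvk, phosphomevalonate kinase, adds the next phosphate. It has 1 probe set, whose name marks that its probes may match more than 1 transcript, and it read 473 in co-culture, against 768 in conditioned medium and 799 in regular medium. The log2 difference of co-culture against regular medium was -0.76, the second smallest of the pathway. Mvd, the decarboxylase that releases isopentenyl diphosphate, read 194 in co-culture, against 833 in conditioned medium and 676 in regular medium on its leading probe set, which is 3.49-fold lower in co-culture than in regular medium. Its other probe set (1448663_s_at) read 60.2 in co-culture, 476 in conditioned medium and 501 in regular medium and was 8.32-fold lower in co-culture, although its name marks that it may match other genes. These Mvd probe sets gave log2 differences of -1.81 and -3.06, the widest disagreement among pathway probe sets of 1 gene that were bright and above the floor on both arrays, and their mean over the gene was -2.43.

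Idi1, the isomerase that converts isopentenyl diphosphate into its reactive isomer dimethylallyl diphosphate, had the largest difference of the pathway. Its leading probe set read 779 in co-culture, against 5755 in conditioned medium and 6415 in regular medium, which is 8.23-fold lower in co-culture than in regular medium. The second (1423804_a_at) read 503 in co-culture, against 2862 in conditioned medium and 3158 in regular medium, and was 6.28-fold lower in co-culture than in regular medium. Counted from the lowest log2 difference among the 9393 bright genes, Idi1 ranked 1. Idi2, a related isomerase, read 7.4 in co-culture, 1.3 in conditioned medium and 1.7 in regular medium, all under the floor, and has no fold.

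Fdps joins these units into farnesyl diphosphate, the branch point of the pathway. Its leading probe set read 1659.5 in co-culture, against 9509 in conditioned medium and 9734 in regular medium, which is 5.87-fold lower in co-culture than in regular medium and ranked 5 from the lowest among the bright genes. A second Fdps probe set (1438150_at) read 7.9 in co-culture, 12.9 in conditioned medium and 28.9 in regular medium, under the floor on every array. Fdft1, squalene synthase, commits farnesyl diphosphate to sterols. It read 717 in co-culture, against 3492 in conditioned medium and 3307 in regular medium on its leading probe set, which was 4.61-fold lower in co-culture than in regular medium and ranked 14 from the lowest. The name of that probe set marks that its probes may also match other genes. A further Fdft1 probe set (1448130_at) read 699 in co-culture, 2817 in conditioned medium and 2970.4 in regular medium and was 4.25-fold lower in co-culture. The remaining Fdft1 probe sets were dim, at 41.8 and 46.6 in co-culture, 8.0 and 14.7 in conditioned medium and 15.6 and 7.0 in regular medium, and carry no call. When all probe sets of a gene were averaged, dim ones included, the log2 difference of co-culture against regular medium was -1.28 for Fdps and -1.04 for Fdft1, so these genes still met the 2-fold rule by a smaller margin.

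Ggps1 makes geranylgeranyl diphosphate, a lipid used to anchor Rab GTPases, and it leaves the route to sterols at farnesyl diphosphate. It read 619 in co-culture, against 792 in conditioned medium and 877 in regular medium. Its other 3 probe sets had log2 differences of -0.73, -0.38 and -0.10 in co-culture against regular medium, so all 4 lay below 0 and none reached 2-fold. Ggps1 ranked 1203 from the lowest, with 12.8% of bright genes below it, and Pmvk ranked 533, with 5.66% below it. Hmgcs1, Mvk and Mvd ranked 29, 23 and 34.

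**Figure D2:**
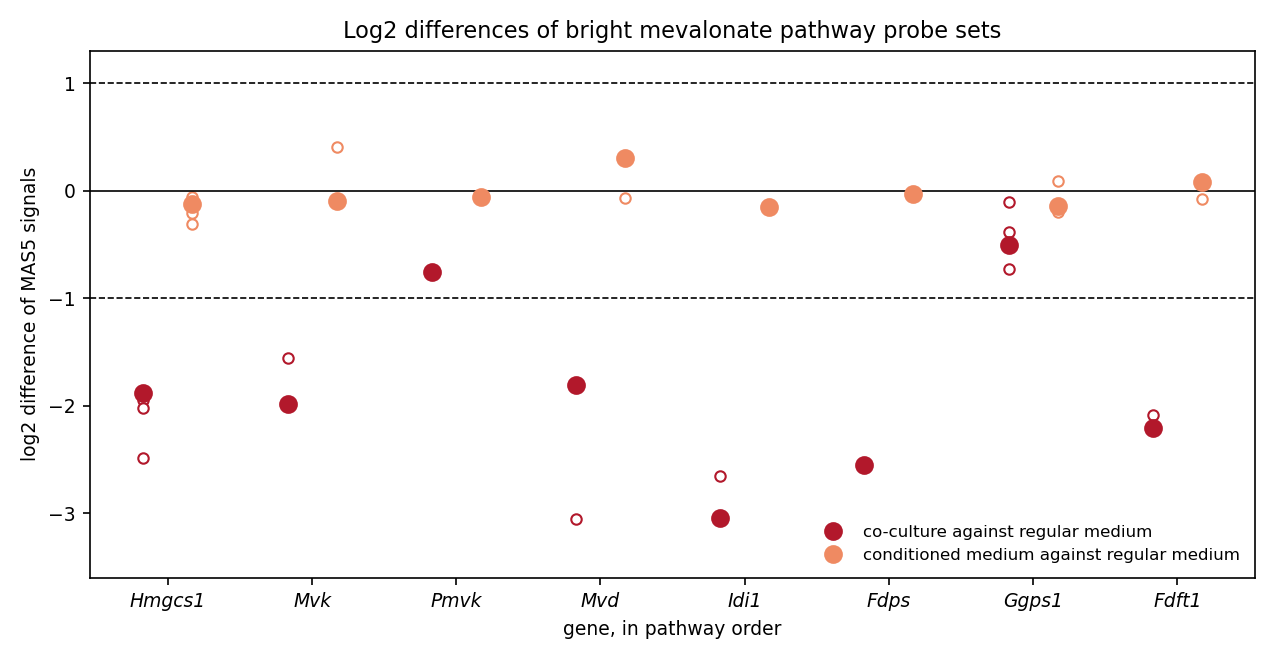
Log2 difference of MAS5 signals for each bright probe set of the pathway genes, with co-culture against regular medium at the left and conditioned medium against regular medium at the right of each gene; filled points stand for the gene, open points are its other probe sets, and dashed lines mark 2-fold. In co-culture 14 of 19 bright probe sets lie beyond the lower line, and the 5 that do not belong to Pmvk and Ggps1.

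Taken by probe set, 19 of the 22 were bright on at least 1 of the co-culture and regular-medium arrays, and 14 of these 19 were called lower in co-culture and none higher, where 5.49% of the 19131 bright probe sets of the whole array were called lower. All 19 had log2 differences below 0. Probe sets of 1 gene share the RNA of the array and are no replicates of the culture, but their disagreement gives a measure of the scatter of the measurement. Over 12186 pairs of probe sets of other genes, the log2 differences of co-culture against regular medium disagreed by a median of 0.36, and 95% of pairs disagreed by less than 1.37. The median over the 16 pairs of the pathway genes was 0.37. The differences of Hmgcs1, Mvk, Mvd, Idi1, Fdps and Fdft1 were larger than 1.37 in size, and those of Pmvk and Ggps1 were smaller. This scatter is a disagreement between probe sets and holds no variation between separate cultures, so 1.37 is no cut-off for a difference between cultures.

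**Figure D3:**
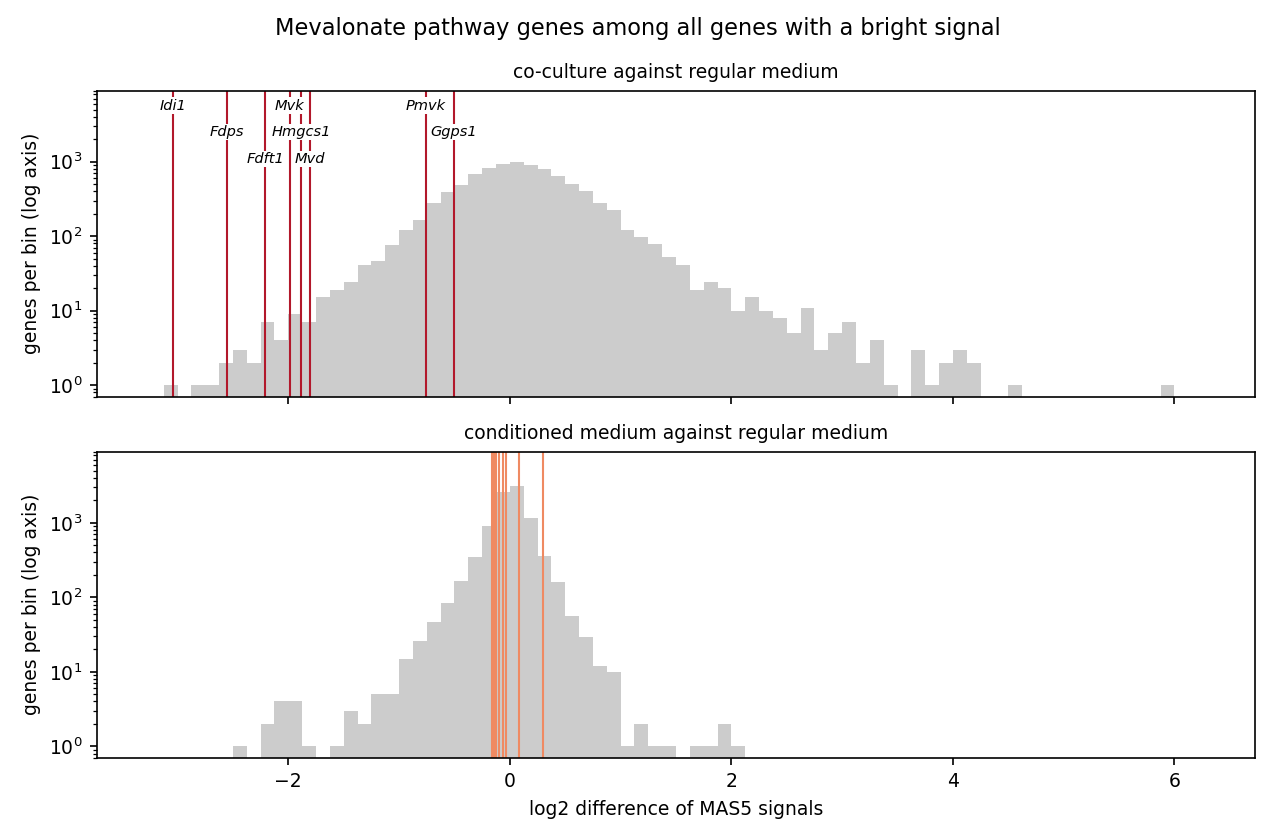
Number of genes per bin of log2 difference on a log axis, for all genes bright on at least 1 of the 2 arrays, with co-culture against regular medium above and conditioned medium against regular medium below; vertical lines are the 8 pathway genes. Above, 6 lines stand in the far lower tail and Pmvk and Ggps1 nearer to the centre, with 5.66% and 12.8% of bright genes below them, and below all 8 stand near 0.

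Markers of MSCs also differed on the co-culture array. Over 13 MSC and fibroblast markers the summed signal was 2832 in co-culture, 1626 in conditioned medium and 1396 in regular medium, and 5 of 13, 7 of 13 and 7 of 13 lay under the floor. In co-culture those 5 were Col1a1, Dcn, Thy1, Pdgfrb and Mgp. Most of each sum is Postn, at 1803 in co-culture, 949.5 in conditioned medium and 766 in regular medium. Of the 5 markers bright in co-culture or regular medium, Bgn and Postn were called higher in co-culture, at least 4.28-fold and 2.35-fold. Over all bright genes 5.81% were called higher and 2.76% lower. Pdgfra and Col1a2 each had a log2 difference of 0.89 and Col6a2 had -0.59. In conditioned medium against regular medium the bright markers Pdgfra, Postn and Col6a2 had 0.65, 0.31 and -0.37, and none was called. The part of MSC RNA in the pathway differences was not tested. Summed leukocyte marker signals were 774 in co-culture, 699 in conditioned medium and 678 in regular medium over 4 genes, with log2 differences in co-culture against regular medium of -0.48 for Csf1r, 0.44 for Cd68 and 0.27 for Cd14. The summed endothelial marker signals were 97.1, 86.6 and 101 over 3 genes in the same order. Contact with MSCs and the isolation that followed it cannot be told apart, because the co-culture cells alone were isolated.

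Conditioned medium against regular medium asked what factors released by MSCs did without contact. None of the 8 pathway genes was called, where 0.306% of 9152 bright genes were called lower and 0.109% higher. That is 28 lower and 10 higher genes, 26.3% of the calls being higher; quantile normalization gave 25 lower and 15 higher, or 37.5%. Of the 8, 6 lay below 0, where 46.3% of all bright genes did. The median log2 difference of the pathway genes was -0.08, beside 0.01 over all bright genes. Idi1 had -0.16, Ggps1 -0.15, Hmgcs1 -0.13, Mvk -0.09, Pmvk -0.06 and Fdps -0.03, while Fdft1 had 0.08 and Mvd 0.30. Mvd, the gene farthest from 0, was split between its probe sets, and the other one (1448663_s_at) had -0.07. Over 11963 pairs of probe sets of other genes, 95% disagreed by less than 0.65 in this comparison, and all 19 bright pathway probe sets lay between -0.31 and 0.40 with none called, where 0.429% of bright probe sets of the whole array were called lower. A small shift of these genes was not detectable with 1 array in each group.

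Co-culture against conditioned medium uses the co-culture array again, so it does not stand apart from the first comparison, and its values are given beside it. The same 6 genes were called lower in co-culture, none was higher, and Pmvk and Ggps1 again were not called, where 2.6% of 9350 bright genes were lower and 5.83% higher. By probe set 13 of 18 bright ones were called lower, where 5.47% of all bright probe sets were. Idi1 was 7.38-fold lower in co-culture than in conditioned medium, Fdps 5.73-fold, Fdft1 4.87-fold and Mvd 4.31-fold. Mvk was 3.72-fold and Hmgcs1 3.38-fold lower. For Pmvk the fold was 1.62 and for Ggps1 1.28. The order of the genes by size was close to that against regular medium, except that Mvd moved from the sixth place to the fourth.

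Related genes were described by lists in the same way. Acat1, the mitochondrial thiolase that makes acetoacetyl-CoA outside the pathway, read 4083 in co-culture, 4365 in conditioned medium and 4379 in regular medium, a log2 difference of -0.10 in co-culture against regular medium. The isoprenoid users were 15 measured genes: prenyltransferases with their partners, enzymes that finish prenylated proteins and those of dolichol, ubiquinone and heme A synthesis. None of the 15 was called in co-culture against regular medium, where 2.76% of all bright genes were called lower and 5.81% higher. A count of 0 in 15 genes is close to those shares. Their median log2 difference was 0.10. Fntb, the beta subunit of farnesyltransferase, had the largest at 0.81, with 248 in co-culture, 173 in conditioned medium and 141 in regular medium. Pdss2, which builds the ubiquinone side chain, had -0.60, Dhdds, a subunit of the dolichol-making cis-prenyltransferase, had -0.50, and Rabggtb, a subunit of the transferase for Rab proteins, had -0.44.

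Downstream of squalene, all 11 measured sterol genes had lower signals in co-culture than in regular medium, 6 of 11 were called lower, and their median log2 difference was -1.06, where 44.0% of all bright genes lay below 0 and 2.76% were called lower. Nsdhl, a sterol dehydrogenase, was the lowest at -2.38, followed by Hsd17b7, a ketosteroid reductase, at -1.72, Lss, lanosterol synthase, at -1.63 and Msmo1, a methylsterol oxidase, at -1.45. Among 11 bright genes of SREBP control and sterol transport, 2 were called lower and 1 higher, with a median of -0.02, beside the 2.76% lower and 5.81% higher of all bright genes. Stard4, a sterol carrier protein, had -1.79 and Insig1, which holds SREBP in the endoplasmic reticulum and is itself a SREBP target, had -1.13. Npc1, the lysosomal cholesterol exporter, had 1.49, with 211 in co-culture, 132 in conditioned medium and 75.3 in regular medium. Mylip, which marks the LDL receptor for breakdown, had -0.99. Srebf2, the gene of SREBP-2, read 1184 in co-culture, 1812 in conditioned medium and 1510.1 in regular medium. Its log2 difference in co-culture against regular medium was -0.35. Srebf1, the other SREBP gene of the list, read 866.1 in co-culture, 1496.7 in conditioned medium and 1567.9 in regular medium. Its log2 difference was -0.86, and neither gene was called. Both were chosen after their values were seen. In conditioned medium the medians of the isoprenoid users, the sterol genes and the SREBP genes were -0.01, 0.04 and -0.02.

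**Figure D4:**
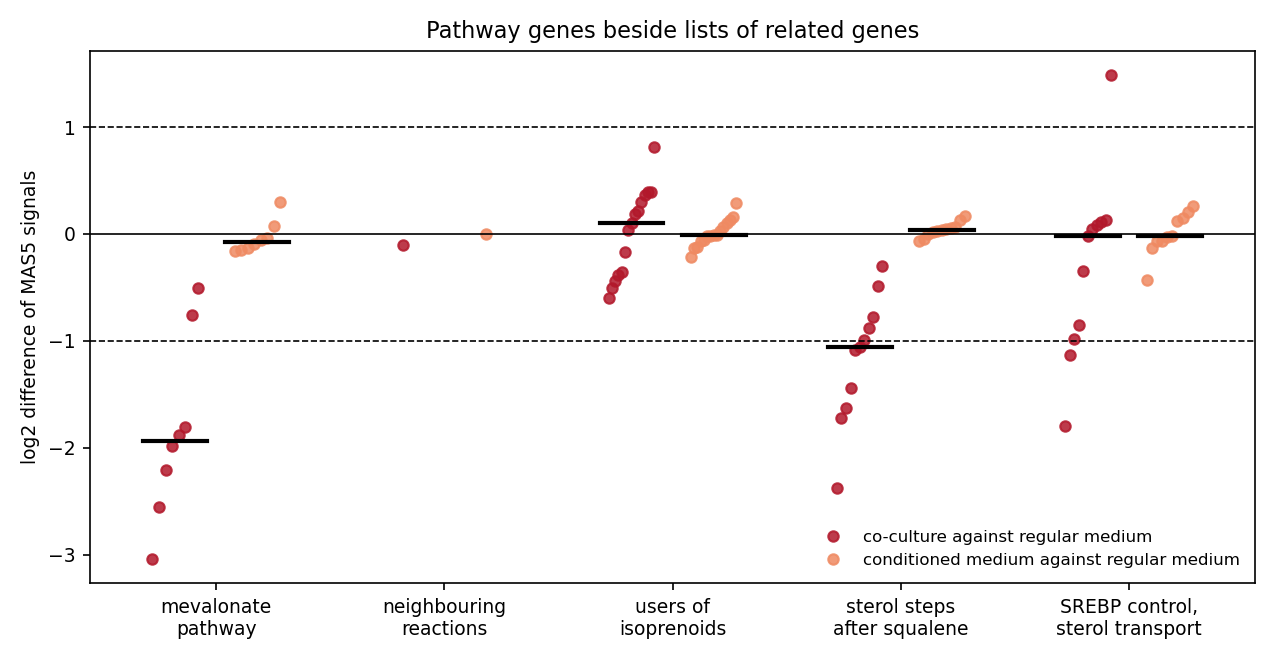
Log2 difference of each bright gene of the mevalonate pathway and of 4 lists of related genes, with co-culture against regular medium at the left and conditioned medium against regular medium at the right; short bars are medians and dashed lines mark 2-fold. In co-culture the medians are -1.94 for the pathway, 0.10 for isoprenoid users, -1.06 for the sterol steps and -0.02 for SREBP control and transport.

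The genes whose pattern was nearest to the pathway were sought among 9413 genes that were bright on at least 1 array and above the floor on all 3, by the Euclidean distance of their log2 differences of co-culture and of conditioned medium against regular medium from the pathway medians. This measure rests on 3 arrays, and the search itself fixes that the genes found have differences near the pathway medians. Outside the lists the nearest were Mmab, an enzyme of vitamin B12 metabolism, at a distance of 0.044, Tnfrsf22, a decoy death receptor of the mouse, at 0.094, Ankrd37 at 0.11, Mtfr2, a mitochondrial fission regulator, at 0.13 and Kif11, a mitotic kinesin, at 0.19. Mmab read 64 in co-culture, 235 in conditioned medium and 241 in regular medium, a log2 difference of -1.91 in co-culture against regular medium. Mmab is the neighbour of Mvk on mouse chromosome 5 and is read from the opposite strand, and the RefSeq promoter windows of these genes share 259 of their 300 bases. The distance of the pathway genes themselves from their median went from 0.055 for Mvk to 1.44 for Ggps1.

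Since 6 of the 8 genes were lower together on the co-culture array, the start regions of the pathway genes were read from RefSeq (build GRCm38.p6), 250 bases before to 50 bases after each gene's start. Windows were found for 7 of the 9 listed genes, 8 windows in all because Pmvk has 2 starts; Fdps and Fdft1 have no entry. Printed here are the 3 genes with the largest differences in co-culture among those with a window (Idi1, Mvk and Hmgcs1) and the gene with the smallest (Ggps1), 5′ to 3′ on the gene's strand. Capitals mark CCAAT, the box bound by NF-Y, a known partner of SREBP, and TCACNCNA, a loose form of the sterol regulatory element, on either strand.
Idi1 (chr13:8885356-8885655, plus strand): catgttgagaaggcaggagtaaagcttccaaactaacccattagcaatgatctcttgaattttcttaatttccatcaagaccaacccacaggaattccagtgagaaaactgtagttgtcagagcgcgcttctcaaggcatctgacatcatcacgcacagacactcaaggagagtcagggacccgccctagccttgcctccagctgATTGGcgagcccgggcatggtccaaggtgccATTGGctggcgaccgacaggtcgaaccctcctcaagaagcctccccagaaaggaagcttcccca
Mvk (chr5:114444019-114444318, plus strand): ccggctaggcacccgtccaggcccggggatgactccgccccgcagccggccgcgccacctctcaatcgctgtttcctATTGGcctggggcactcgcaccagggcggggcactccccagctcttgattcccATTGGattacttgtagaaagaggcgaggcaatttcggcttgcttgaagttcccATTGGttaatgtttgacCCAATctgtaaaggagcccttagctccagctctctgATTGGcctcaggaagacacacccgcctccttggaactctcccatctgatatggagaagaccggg
Hmgcs1 (chr13:119690101-119690400, plus strand): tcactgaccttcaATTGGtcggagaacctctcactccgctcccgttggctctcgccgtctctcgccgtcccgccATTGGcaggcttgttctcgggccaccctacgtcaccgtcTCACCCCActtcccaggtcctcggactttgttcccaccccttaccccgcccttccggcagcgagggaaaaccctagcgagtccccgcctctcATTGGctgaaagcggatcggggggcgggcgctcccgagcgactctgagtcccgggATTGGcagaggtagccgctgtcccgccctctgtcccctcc
Ggps1 (chr13:14063439-14063738, minus strand): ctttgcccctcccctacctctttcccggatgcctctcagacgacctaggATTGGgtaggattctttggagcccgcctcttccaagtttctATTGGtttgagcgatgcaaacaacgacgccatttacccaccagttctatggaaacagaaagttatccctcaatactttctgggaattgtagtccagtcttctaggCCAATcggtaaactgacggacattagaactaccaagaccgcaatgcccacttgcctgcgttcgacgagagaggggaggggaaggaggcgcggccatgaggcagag

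The Hmgcs1 window was the only one of the 8 with a sterol element. It held TCACNCCAC, a strict form that includes the loose one, as TCACCCCAC from base -137 to base -129 before the start, between CCAAT boxes. Of all 32851 promoter windows of the table, 1.24% held TCACNCCAC and 11.0% held TCACNCNA on either strand. CCAAT was found in 6 of the 8 windows, those of Hmgcs1, Mvk, Mvd, Idi1 and Ggps1 and 1 window of Pmvk, where 37.4% of all windows held it. Mvk had 5 matches and Hmgcs1 had 4, numbers that 0.271% and 1.06% of all windows reached or passed. Idi1, with the largest difference, and Mvd had 2 each, a number that 11.7% of all windows reached or passed. Pmvk had 1 in the window that held it. Ggps1, which was not called lower, had 3, a number that 3.37% of all windows reached or passed. GGGCGG, the GC box bound by Sp1, was present in 5 of 8 windows and in 35.7% of all windows, and CACGTG in none of the 8 and in 7.15% of all. A match is a run of letters and not evidence of binding, and a window without a match shows no more than that these letters are not in it.

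**Figure D5:**
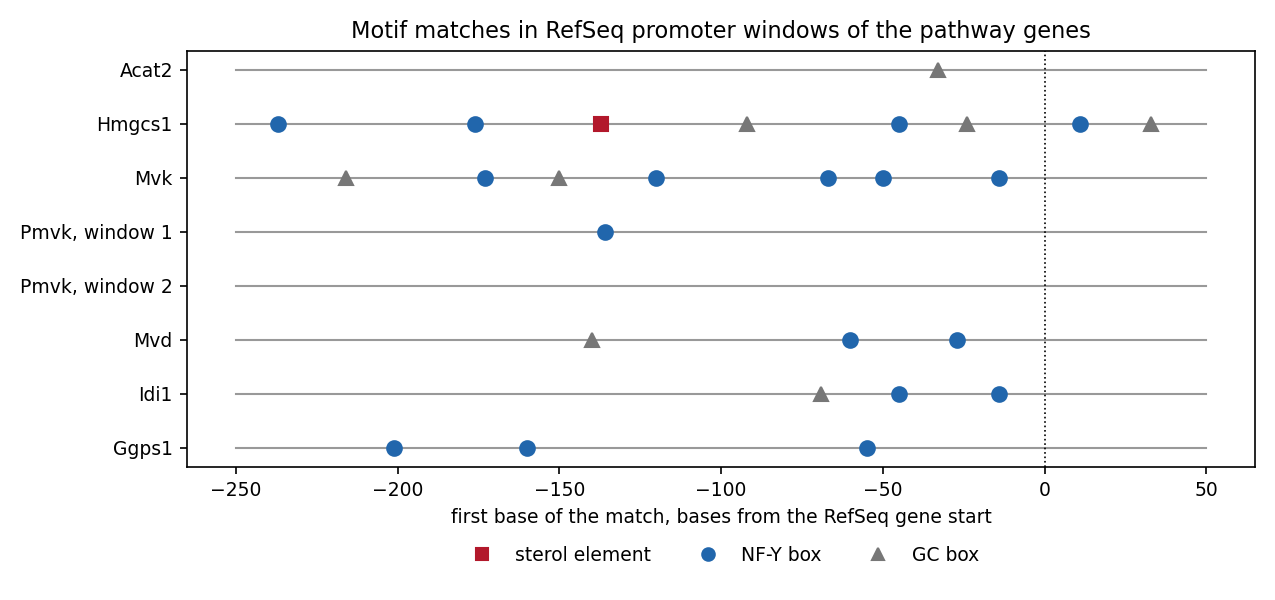
Positions of motif matches in the 8 promoter windows, in bases from the RefSeq gene start, with squares for the loose sterol element, circles for the NF-Y box and triangles for the GC box, either strand. The Hmgcs1 window carries the single sterol element, at -137, and Mvk the most NF-Y boxes, with 5.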

How the data were processed

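RNA from 3 cultures of 4T1 cells was measured, with 1 array in each group, and groups were taken from the labels. The deposited values are linear intensity values, made by the authors with MAS5, as the submitters' processing notes state without version or scaling target. MAS5 gives 1 signal from all probes in a set, so cross-hybridisation and dim probes can move a value. Trimmed means (2% off each end) were 498 on each array, so the scaling was kept.

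Of 45037 probe sets, the platform annotation gave 1 symbol for 34945, several for 932 and none for 9160. For 34741 of the 34945 the gene identifier was found in RefSeq. Its RefSeq symbol was then used, whether or not it differed. The probe set with the highest mean stood for a gene. The floor, the bright level and the 2-fold rule are given with the results. With 1 array a group no test was possible, and precision is limited by that number. The calling steps were tested on simulated data. The simulated scatter was set in advance and not taken from these arrays, so this checks the steps and not the precision of these values. Alternatives covered scaling, floor, filter, probe set choice and fold rule.

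The members and lists were chosen with earlier results of these data known. Named are all members, up to 4 measured genes of each list with the largest differences in co-culture, and the 5 genes nearest by pattern. Other epithelial and MSC markers, Idi2, Srebf1, Srebf2 and the closing genes fall outside this rule. Other enzymes of the pathway and protein sequences were not used here. Promoters are from RefSeq, build GRCm38.p6. The tools were pandas 2.3.3, NumPy 2.4.6 and Matplotlib 3.10.9 under Python 3.11.15.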

Additional observations from a re-analysis of the deposited data

How the results depend on the processing

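No paired analysis was possible because each group has 1 array. In co-culture against regular medium 5 to 7 pathway genes were called lower and 0 higher over the 10 alternatives. With the filter at the 80th percentile 5 of 7 bright genes were called. Without probe sets whose names mark that they may match more than 1 transcript, where Pmvk has no value, 6 of 7 were. With the 1.5-fold rule 7 of 8 were, where 9.86% of all bright genes were lower. The median log2 difference of the pathway genes bright in each setting ranged from -1.99 to -1.53. Against conditioned medium the median ranged from -2.11 to -1.57, and in conditioned medium against regular medium from -0.09 to -0.04, with 0 genes called in any alternative. Of 189 single-gene differences under alternatives, 117 equalled the reported value, since the filter does not enter them, no leading probe set of a pathway gene lies under any of the floors, and some genes keep the same probe set under the other probe set choices. Of the 72 values that other alternatives altered, 67 stayed within 1.5-fold of the reported value and 5 did not, all with probe sets averaged: Mvd, Fdps and Fdft1 against regular medium at -2.43, -1.28 and -1.04, and Fdps and Fdft1 against conditioned medium at -1.26 and -1.04. For Fdps and Fdft1 the average takes in probe sets at the floor, and for Mvd a probe set with a larger difference. The background counts moved more. In co-culture against regular medium 546 genes were higher and 259 lower, against 1586 and 926 with a 1.5-fold rule, 164 and 58 with 3-fold, 672 and 429 without the filter and 348 and 228 with averaged probe sets. With the floor at the 60th percentile there were 460 and 182, and with the filter at the 80th percentile 303 and 132. In conditioned medium against regular medium 10 were higher and 28 lower, against 69 and 134, 5 and 12, 59 and 200, 7 and 12, 2 and 1, and 1 and 1 in the same order. Quantile normalization gave 15 and 25 there. In co-culture against conditioned medium 545 were higher and 243 lower, against 1579 and 930, 177 and 56, 700 and 335, 351 and 222, 444 and 194, and 282 and 141.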

Other observations

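Among the 20 genes nearest in pattern to the pathway, lists included, were Aacs, Scd2 and Pcyt2, enzymes of lipid metabolism, and Kif11, Pimreg, Ckap2, Fam83d and Neil3, known from mitosis or DNA repair. These genes were chosen after their values were seen, and the search itself fixed that their log2 differences lie near the pathway medians. The 20 also held Has2, Ccl2, Slc18a2, Cyth2, Mycbp and Mir1949. The share of lipid or mitosis genes over the whole array was not counted, so no theme was tested. Aacs, acetoacetyl-CoA synthetase, which supplies the substrate of Hmgcs1 from ketone bodies in the cytosol, read 369.6 in co-culture, 1672 in conditioned medium and 1546 in regular medium, a log2 difference of -2.06 in co-culture against regular medium. Scd2, a fatty acid desaturase, had -1.64, with 7317 in co-culture, 23069 in conditioned medium and 22803 in regular medium. Pcyt2, an enzyme of phosphatidylethanolamine synthesis, had -1.65, with 388 in co-culture, 1248 in conditioned medium and 1221 in regular medium. In conditioned medium against regular medium their log2 differences were 0.11 for Aacs, 0.02 for Scd2 and 0.03 for Pcyt2. The log2 difference of co-culture against regular medium was -1.71 for Pimreg, -1.70 for Ckap2, -2.24 for Fam83d and -1.69 for Neil3.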
